A study of Mus musculus with 2 samples.

Results

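The 164 cells described here are E12.0 mandibular epithelial cells in which mRNAs of mitosis were counted but none of Top2a. They were chosen by their unique molecular identifiers (UMIs, each 1 counted transcript molecule): at least 2 UMIs of Hist1h2bc, at least 1 UMI of Ccnb2 and Cenpa together, and no UMI of Top2a. They were 164 of 11355 cells kept (1.44%, exact binomial 95% interval 1.23 to 1.68%), a choice made to capture a post-mitotic, early G1 state. The choice itself bears on their mitotic mRNAs and whether they are in early G1 was not tested, so they are called the selected cells here. The sum of a list of G1 genes was not higher in them than in other cells without Top2a. That list also holds genes of the G1 to S transition, so its sum cannot tell their state. Cells were kept with 200 to 5500 genes and at most 10% mitochondrial UMIs. Hist1h2bc encodes a histone H2B, Ccnb2 the mitotic cyclin B2, Cenpa the centromeric histone H3 variant and Top2a the topoisomerase that untangles sister chromatids.

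The cells came from 6 embryos of 1 litter, genotype K14Cre;R26mT/mG, in which Cre under the keratin 14 promoter switches a membrane reporter to GFP in epithelial cells. Mandibular arches were taken at E12.0, the epithelium was separated from the mesenchyme, and GFP-positive single cells were sorted and sequenced as 1 10x Genomics library. A second library of the same genotype held unsorted cells of E9.5 mandibular arches, mesenchyme included, from 8 embryos. With 1 pooled library per stage there is no replicate and no test between cell groups, and every interval below is a 95% interval of counting error only.

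In a dividing cell, genes of DNA replication are transcribed around S phase, and genes of the spindle, the kinetochore and chromosome condensation in G2 and mitosis. At the exit from mitosis the anaphase-promoting complex, activated by Cdc20 and then by Cdh1, marks mitotic cyclins for degradation, while mRNAs made before division can persist into the daughter cells. Most histone genes of the clusters are transcribed in S phase into mRNAs without a poly(A) tail, but some of them, Hist1h2bc and Hist1h1c among them, also give polyadenylated mRNAs, and the assay used here captures poly(A).

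3 groups served for comparison: all 11191 other kept cells, the 4427 cells with at least 3 Top2a UMIs (Top2a-high cells), and the 5272 other cells without a Top2a UMI (other Top2a-negative cells). Depth was closest to that of the last. Median UMIs per cell were 5650.5 in the selected cells, 5409 in the other Top2a-negative cells, 8198 in the Top2a-high cells and 6365 in all other cells, with medians of 2501.5, 2484, 3267 and 2782 genes. The selected cells summed to 1006227 UMIs, so that 3 UMIs, the floor used for a count of 0, amount to 2.98 CPM (UMIs per 1000000 UMIs of a group). The median mitochondrial share was 5.39% in the selected, 5.71% in the other Top2a-negative and 5.32% in the Top2a-high cells. Scrublet, which scores cells against simulated mixtures, called 6 of the 164 doublets (3.66%), against 2.60% of the other Top2a-negative and 9.69% of the Top2a-high cells.

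Of the genes that chose the cells, Hist1h2bc had 2 UMIs in 104 of them, 3 in 38 and at least 4 in 22, up to a highest value of 7. Ccnb2 and Cenpa together had 1 UMI in 61 cells, 2 in 44 and at least 3 in 59. Cenpa supplied most of these, with a UMI in all but 14 cells, while 92 cells had no Ccnb2 UMI. These values follow from the choice and are given as a description. Hist1h2bc (chromosome 13, 23684199 to 23692908, plus strand, GRCm38) was at 420 CPM (381 to 462) in the selected cells, 24.9 CPM (23.1 to 26.8) in the other Top2a-negative cells and 7.88 CPM (7.02 to 8.82) in the Top2a-high cells.

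Hist1h2bc was not spread evenly over the cycle classes. Of the 10140 kept cells without a Hist1h2bc UMI, 41.4% were Top2a-high and 45.8% had no Top2a UMI. Of the 882 cells with 1 UMI, 21.2% were Top2a-high, and of the 333 cells with at least 2, 13.8%. The share of cells with a Ccnb2 or Cenpa UMI went the other way, from 36.5% (35.6 to 37.5%) at 0 Hist1h2bc UMIs to 63.2% (59.9 to 66.3%) at 1 and 76.0% (71.0 to 80.5%) at 2 or more. Median depth in these classes was 6397.5, 5953 and 5859 UMIs per cell. The 164 selected cells were 49.2% of the cells with at least 2 Hist1h2bc UMIs, while 8.65% of the cells without a Hist1h2bc UMI met the other criteria. All these are counts of the genes that chose the cells, a choice made with earlier results of these data known. They are a description and no support for a state.

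Across all genes more were lower than higher in the selected cells. A gene was considered if at least 15% of the cells of either group had a UMI, and counted as higher or lower if its CPM differed at least 1.3 times and 15% of the cells of the higher group had a UMI. Against all other kept cells 339 of 6254 genes were higher (5.42%) and 880 lower (14.1%). Against Top2a-high cells 573 of 6848 were higher (8.37%) and 1284 lower (18.8%). Against other Top2a-negative cells 340 of 5801 were higher (5.86%) and 611 lower (10.5%). With the genes of the choice set aside, only 3 genes were at least 2 times higher than in all other cells, against 170 at least 2 times lower. Counts of higher genes moved with the settings, to 614 against 745 lower genes over all other cells when counts were thinned to 4000 UMIs, 877 against 1512 at a limit of 5% mitochondrial UMIs and 128 against 630 with at least 1 Hist1h2bc UMI. The median log2 fold over all genes considered was -0.018, -0.018 and -0.0074 in these comparisons.

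The summed level of DNA replication genes was lower in the selected cells than in each comparison group. No gene of a list of 43 S phase genes was higher in them than in any comparison group, and 39 were lower than in Top2a-high cells, where 18.8% of all genes were. Of the 27 considered against the other Top2a-negative cells 14 were lower (10.5% of all genes), with a median log2 fold of -0.41 over the 27. Nasp, a histone chaperone and the most abundant of the list, was not lower (623 against 621 CPM). Summed over the list, S phase genes were at 2675 CPM in the selected cells, 3223 CPM in the other Top2a-negative cells and 5626 CPM in the Top2a-high cells. Rrm2, a subunit of ribonucleotide reductase, was at 35.8 CPM (25.1 to 49.5), against 54.2 CPM (51.6 to 56.9) and 183 CPM (179 to 187) in those groups. Mcm6, a subunit of the replicative helicase, was at 76.5 CPM (60.4 to 95.6), against 126 CPM (122 to 130) and 120 CPM (117 to 124), so that it was lower in the selected cells than in both. Gmnn, the inhibitor of origin relicensing, was at 40.7 CPM (29.2 to 55.3) against 54.3 and 152 CPM, and its fold to the other Top2a-negative cells had an interval that includes no difference (log2 -0.41, -0.90 to 0.03). Outside the lists, Mcm10, an initiation factor of replication, was among the 10 genes furthest below all other cells (log2 -3.63).

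The summed level of G2/M genes lay between those of the Top2a-negative and Top2a-high cells. A list of 51 G2/M genes, which leaves out the genes of the choice, held 21 genes past the size criteria above the other Top2a-negative cells (5.86% of all genes) and 1, G2e3, below them. As many low genes were considered only through the group where they were high, such counts of higher genes are no support, and sums over whole lists stand beside them. Against Top2a-high cells none was higher and 47 of 50 were lower (18.8% of all genes). In all, 18 genes of the list were both above the other Top2a-negative and below the Top2a-high cells, and 28 were below the Top2a-high cells only. Of all 27994 genes, 41 and 875 fell in these classes. The list summed to 5095 CPM in the selected cells, 3364 CPM in the other Top2a-negative cells and 11824 CPM in the Top2a-high cells. Against all other kept cells, which mix both classes, 31 of 45 were lower (14.1% of all genes) and Cdc20 alone was higher. The criterion of a Ccnb2 or Cenpa UMI and that of no Top2a UMI each bear on genes that go with them, so these counts describe the cells and are no independent sign of their state.

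**Figure D1:**
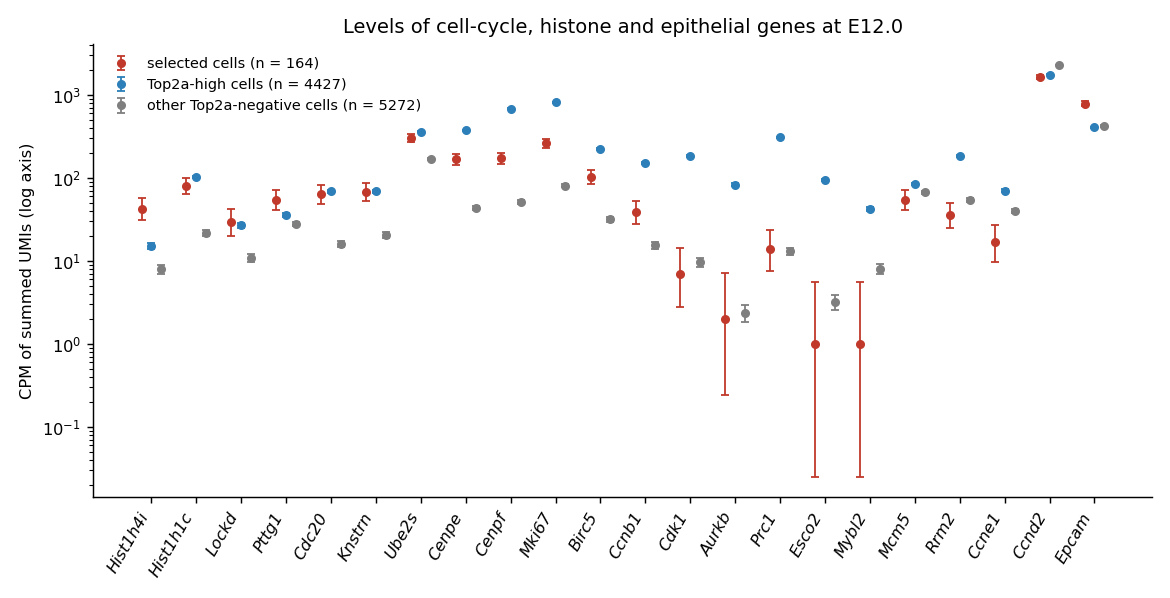
Levels of 22 genes in the selected cells (red), the Top2a-high cells (blue) and the other Top2a-negative cells (grey), as CPM of summed UMIs on a log axis with exact Poisson 95% intervals. Cdc20, Knstrn and Ube2s of the selected cells sit near the blue points, while Cdk1, Aurkb and Prc1 sit near or below the grey ones.

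Per cell, the medians of these lists had the same order. With every cell thinned to 4000 UMIs, which left out 12 of the selected cells, the S phase list had a median of 9 UMIs per selected cell (lowest 2, highest 29), 11 in the other Top2a-negative cells and 22 in the Top2a-high cells. The G2/M list had medians of 18 UMIs (lowest 4, highest 68), 11 and 43. For the S phase list the quartiles were 7 and 13 UMIs in the selected and 6 and 17 in the other Top2a-negative cells, so that the lower quartile was not lower in the selected cells. For the G2/M list they were 11.75 and 27 against 9 and 15. Selected cells thus overlapped both groups in G2/M UMIs, and 1 in 10 had at most 8, below the median of the other Top2a-negative cells.

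**Figure D2:**
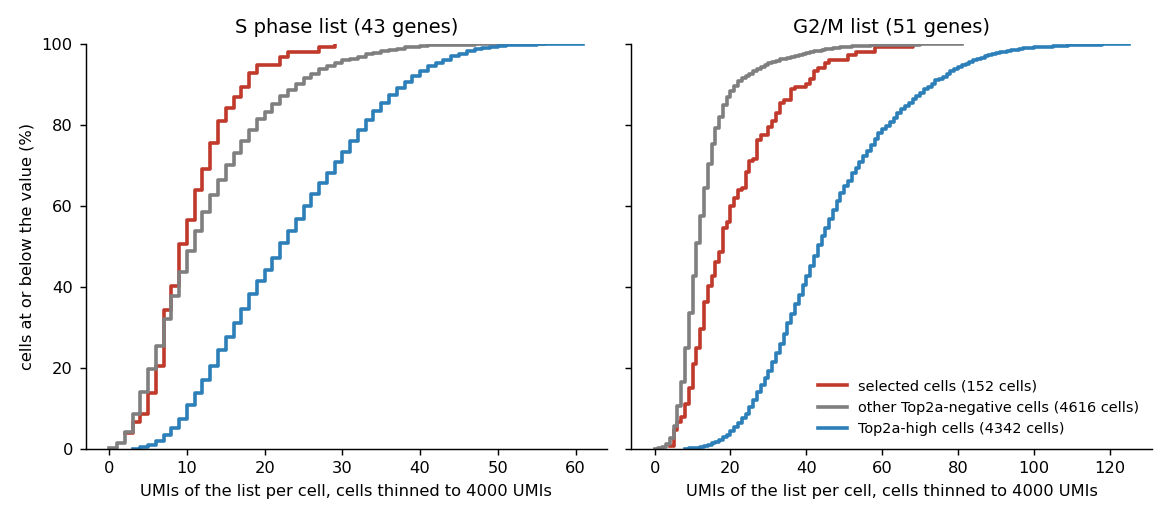
Cumulative share of cells (y axis, %) at or below a number of UMIs of the S phase list (left) and the G2/M list (right), in cells thinned to 4000 UMIs. The selected cells (red, 152 cells) have medians of 9 (S phase) and 18 UMIs (G2/M), and their S phase curve crosses that of the other Top2a-negative cells at low values.

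A few regulators of mitosis stood near or above their level in Top2a-high cells. Cdc20, the activator of the anaphase-promoting complex, was at 63.6 CPM (49.0 to 81.2) in the selected cells, 69.2 CPM (66.6 to 71.9) in the Top2a-high and 16.0 CPM (14.6 to 17.6) in the other Top2a-negative cells. Knstrn, a spindle and kinetochore protein that acts in anaphase onset, was at 68.6, 68.9 and 20.7 CPM in the same order. Ube2s, the ubiquitin-conjugating enzyme that extends chains on substrates of that complex, was at 300.1, 361 and 168 CPM. Pttg1, the securin that holds separase inactive, was at 54.7 CPM (41.2 to 71.1) and so above both the Top2a-high cells (35.6 CPM, log2 fold 0.62, 0.20 to 1.01) and the other Top2a-negative cells (27.9 CPM, log2 fold 0.97, 0.55 to 1.37). It was the 1 gene of the mitosis list above both. Ube2c, the other ubiquitin-conjugating enzyme of the complex, was far below Top2a-high cells, at 28.8 CPM against 293 CPM, and at 12.8 CPM in the other Top2a-negative cells (log2 fold 1.17, 0.57 to 1.72).

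A second set of mitotic genes was at or near the level of the other Top2a-negative cells. Cdk1, the kinase that drives mitosis, had 7 UMIs in 164 cells (6.96 CPM, 2.80 to 14.3), against 9.66 CPM in the other Top2a-negative and 183 CPM in the Top2a-high cells. Aurkb, the kinase of the chromosomal passenger complex, had 2 UMIs (1.99 CPM, 0.241 to 7.18) against 2.36 and 83.2 CPM. Birc5 and Cdca8, which encode partners of Aurkb in that complex, were instead well above the other Top2a-negative cells (log2 fold 1.69, 1.39 to 1.99, and 1.75). Incenp, the scaffold of the same complex, was at 15.9 CPM against 20.7 and 222 CPM. Members of 1 complex thus differed in their levels summed over the selected cells. In the 877 cells without a Hist1h2bc UMI, Birc5, Cdca8, Incenp and Aurkb were at 93.4, 118, 22.9 and 2.76 CPM, so the difference was not particular to the selected cells. Prc1, which bundles the central spindle, was at 13.9 CPM against 13.1 and 307 CPM, and the kinetochore gene Ndc80 had 4 UMIs (3.98 CPM) against 3.96 and 57.1 CPM.

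Other genes, on which the Ccnb2 or Cenpa criterion bears too, stood between, far from both. Cenpe, the kinetochore motor, was at 167 CPM (143 to 194), against 43.5 CPM in the other Top2a-negative and 373 CPM in the Top2a-high cells. Cenpf, a kinetochore protein, was at 172 CPM against 51.6 and 679 CPM. Mki67, which coats mitotic chromosomes, was at 260 CPM (230 to 294) against 80.7 and 817 CPM. Ccnb1, the other major mitotic cyclin, was at 38.8 CPM (27.6 to 53.0) against 15.4 and 151 CPM. The 25 mitosis regulators summed to 1022 CPM in the selected, 483 CPM in the other Top2a-negative and 2853 CPM in the Top2a-high cells. Of the 23 considered against the last, 20 were lower (18.8% of all genes). The 21 spindle and cytokinesis genes summed to 595, 245 and 2462 CPM in the same order, and 20 were lower than in Top2a-high cells (18.8% of all genes). Of these lists 10 and 7 genes were considered against the other Top2a-negative cells, and Cdk1, Aurkb, Prc1 and Ndc80 were not among them.

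**Figure D3:**
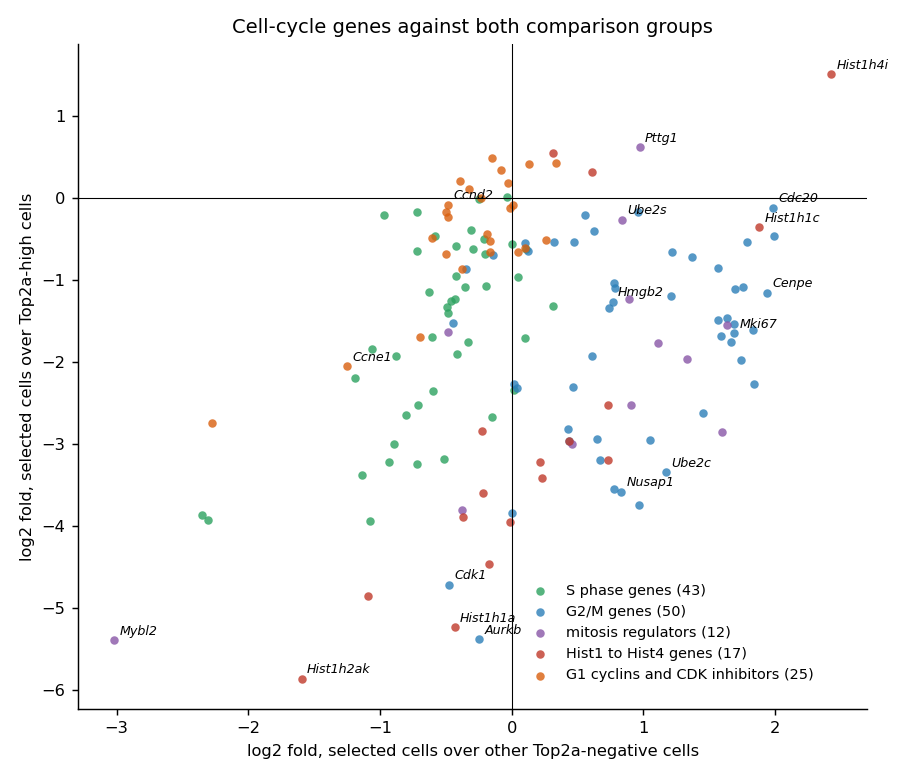
Log2 fold of the selected cells over other Top2a-negative cells (x axis) and over Top2a-high cells (y axis) for 147 cell-cycle and histone genes, each drawn once under the first list that holds it. Most S phase genes (green) lie below 0 on both axes, most G2/M genes (blue) right of 0 and below it, and Hist1h4i and Pttg1 are above 0 on both.

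Ccnb2, a gene of the choice, Cdc20 and Cdk1 served to look at promoter sequence. CCAAT, the box bound by NF-Y, and TTTGAA, the letters of the cell cycle genes homology region, were searched on both strands in the 120 bases before the RefSeq start (GRCm38.p6) and are in capitals below. The windows shown are those of Ccnb2 (chr9:70421555-70421674), Cdc20 (chr4:118437344-118437463) and Cdk1 (chr10:69352913-69353032), all on the minus strand, to set 2 mRNAs present in the selected cells beside 1 near absent from them.
Ccnb2: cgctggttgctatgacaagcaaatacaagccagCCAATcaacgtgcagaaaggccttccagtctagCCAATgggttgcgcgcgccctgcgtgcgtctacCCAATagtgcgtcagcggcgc
Cdc20: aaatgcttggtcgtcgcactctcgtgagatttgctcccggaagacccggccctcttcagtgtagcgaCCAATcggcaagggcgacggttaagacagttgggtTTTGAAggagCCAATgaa
Cdk1: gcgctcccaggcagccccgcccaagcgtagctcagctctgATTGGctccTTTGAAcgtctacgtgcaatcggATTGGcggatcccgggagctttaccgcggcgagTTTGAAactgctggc
Ccnb2 had 3 CCAAT and no TTTGAA matches in this window, Cdc20 2 and 1, and Cdk1 2 of each. Of all 32851 tabulated promoters, 21.3% held CCAAT and 7.12% TTTGAA, and of the 43 promoters matched to G2/M genes 69.8% and 30.2%. Of the 31 promoters of S phase genes 64.5% held CCAAT, close to the G2/M share, and TTTGAA was in 6.45% of them. All 3 windows thus held CCAAT and those of Cdc20 and Cdk1 also TTTGAA, while the 2 genes differed in level in the selected cells. A match describes the letters only.

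Outside the lists, the 10 genes furthest below all other cells were Esco2, Pbk, Mcm10, Fbxo5, Sgol1, Cdca5, Brca1, Sgol2a, Zfp367 and Ticrr. Esco2, the acetyltransferase that sets sister chromatid cohesion in S phase, had 1 UMI in the selected cells against 51.3 CPM in all other cells (log2 fold -5.69, -10.99 to -3.21). Mybl2, a transcription factor of S phase and G2, also had 1 UMI, against 8.06 CPM in the other Top2a-negative cells (log2 fold -3.02, -8.33 to -0.53) and 42.0 CPM in Top2a-high cells. Pbk, a mitotic kinase, Fbxo5, an inhibitor of the anaphase-promoting complex, and Sgol1, which protects centromeric cohesion, had log2 folds of -3.66, -3.05 and -2.86 against all other cells, and their folds to the other Top2a-negative cells had intervals that include no difference. Hjurp, the chaperone that loads CENP-A onto centromeres after division, was at 23.9 CPM, within counting error of the other Top2a-negative cells (23.1 CPM), although Cenpa itself was a gene of the choice. The 19 further centromere genes summed to 651 CPM in the selected, 329 CPM in the other Top2a-negative and 1977 CPM in the Top2a-high cells.

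The 32 cyclins, kinases and inhibitors of G1 summed to 3940 CPM in the selected cells, 4848 CPM in the other Top2a-negative cells and 4247 CPM in the Top2a-high cells. Of the 19 considered against the other Top2a-negative cells none was higher and 6 were lower, beside 5.86 and 10.5% of all genes. Ccne1, the cyclin of the G1 to S transition, was at 16.9 CPM (9.84 to 27.1), against 40.2 CPM (37.9 to 42.5) in the other Top2a-negative and 70.2 CPM in the Top2a-high cells (log2 folds -1.25 and -2.05). Ccne2 had 2 UMIs and E2f1, a factor of S phase entry, 3 UMIs, against 10.1 and 14.4 CPM in the other Top2a-negative cells (log2 folds -2.35, -5.40 to -0.49, and -2.27, -4.56 to -0.72). Ccnd2, the most abundant D cyclin, was at 1647 CPM against 2299 CPM (log2 fold -0.48, -0.55 to -0.41), and Cdk6 at 107 CPM against 163 CPM. Cdkn1c, an inhibitor of cyclin-dependent kinases, was at 454 CPM against 480 CPM. Cdkn1a, another, was at 43.7 CPM against 57.3 CPM, past the size criteria but with an interval that includes no difference (log2 fold -0.39, -0.86 to 0.04). Against Top2a-high cells 13 of 26 were lower and 3 higher, beside 18.8 and 8.37% of all genes. Btg1, Btg2 and Tob1, which slow proliferation, were the 3 (log2 0.41, 0.49 and 0.43, the last with an interval of -0.18 to 0.98).

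Lockd, a long noncoding RNA downstream of Cdkn1b (chromosome 6, 134929092 to 134956798, plus strand, GRCm38), was listed among the markers of these cells, and its level was within counting error of that of Top2a-high cells. It had 30 UMIs in the selected cells, 1 UMI in 21 cells, 2 in 3 and 3 in 1 cell, and none in 139. Its level was 29.8 CPM (20.1 to 42.6), against 26.9 CPM (25.3 to 28.6) in Top2a-high cells (log2 fold 0.15, -0.43 to 0.67). In the other Top2a-negative cells it was lower, at 10.8 CPM (log2 fold 1.47, 0.88 to 2.01). Its neighbour Cdkn1b was at 43.7 CPM (31.8 to 58.7). The lower of the Cdkn1b levels in these comparison groups, 48.9 CPM, was within that interval, and the higher, 69.1 CPM, was above it.

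Cluster histone genes did not move one way. Of 68 genes of the Hist1 to Hist4 clusters other than Hist1h2bc, 28 had no UMI in the selected cells, and of the 18 considered against Top2a-high cells 14 were lower and 2, Hist1h4i and Hist3h2ba, higher, beside 18.8 and 8.37% of all genes. The 68 genes summed to 509 CPM in the selected, 365 CPM in the other Top2a-negative and 2659 CPM in the Top2a-high cells. Hist1h1b, a linker histone, was at 77.5 CPM against 941 CPM in Top2a-high cells, Hist1h1a at 2.98 CPM against 112 CPM, and Hist1h2ak had 1 UMI against 57.9 CPM (log2 fold -5.86, -11.17 to -3.38). Hist1h4i, a histone H4 (chromosome 13, 22040636 to 22041362, minus strand), was higher than in every comparison group, at 42.7 CPM (30.9 to 57.6) against 7.96 CPM in other Top2a-negative and 12.0 CPM in all other cells, with a log2 fold of 1.51 (1.03 to 1.96) over Top2a-high cells. It was considered only through the selected cells, of which 20.1% had a UMI, against 4.12% of the other Top2a-negative and 7.61% of all other cells. Hist1h1c, a linker histone, was at 80.5 CPM (63.9 to 100.1), against 103 CPM in Top2a-high and 21.9 CPM in other Top2a-negative cells. Hist3h2ba was at 106 CPM against 73.0 and 85.5 CPM in the same order. Cluster genes for the same type of histone are alike in sequence, so reads may have been split or lost between such copies in the counting. Of 9 variant and replication-independent histones 4 were higher than in the other Top2a-negative cells (5.86% of all genes), among them H2afz (2232 against 1303 CPM) and H1fx (285 against 157 CPM), and none was higher and 2 were lower than in Top2a-high cells.

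To see what went with Hist1h2bc itself, the selected cells were set beside 877 cells that met the other 2 criteria without a Hist1h2bc UMI (median 5525 UMIs). Sums of mitotic lists did not separate them, while some single genes did, among them Kif2c, a kinesin of the centromere (8.94 against 23.2 CPM, log2 fold -1.38, -2.54 to -0.40), and Cenpe (167 against 135 CPM, 0.31, 0.055 to 0.55). The G2/M list summed to 5095 CPM in the selected and 5027 CPM in the 877 cells (log2 ratio 0.019, -0.024 to 0.063), and the mitosis list to 1022 and 981 CPM (0.058, -0.040 to 0.16). Lockd was at 29.8 and 32.3 CPM. The S phase list was lower in the selected cells, at 2675 against 3327 CPM (log2 ratio -0.31, -0.37 to -0.26). Most other cluster histones had too few UMIs to compare. With intervals above 0 were Hist1h4i at 42.7 against 16.5 CPM (log2 fold 1.37, 0.80 to 1.92), Hist1h1c at 80.5 against 36.1 CPM (1.16, 0.76 to 1.54) and Hist3h2a at 34.8 against 18.1 CPM (0.94, 0.34 to 1.52), besides Hist1h4j (6 UMIs against 7, log2 fold 2.11) and Hist3h2ba (0.34). Hist1h1b was at 77.5 against 84.7 CPM and Hist1h4d at 8.94 against 10.4 CPM. Both groups were chosen by the same Ccnb2, Cenpa and Top2a criteria, so their like sums of mitotic mRNAs follow in part from that choice.

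**Figure D4:**
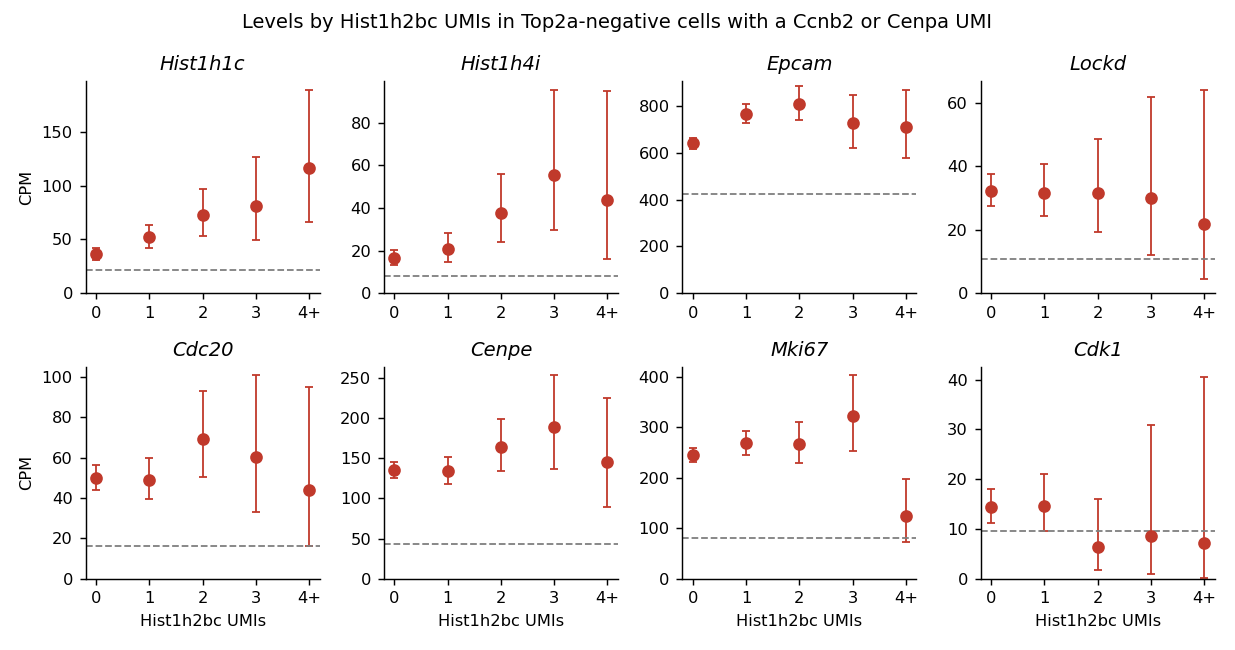
CPM (y axis, exact Poisson 95% intervals) of 8 genes in Top2a-negative cells with a Ccnb2 or Cenpa UMI, by their number of Hist1h2bc UMIs (x axis), where 2 or more are the selected cells. Dashed lines give the other Top2a-negative cells. Hist1h1c is at 36.1 CPM without and 116 CPM with at least 4 Hist1h2bc UMIs, while Lockd is near 30 CPM in all but the last class.

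The values just outside and just inside each threshold follow. The 325 cells with 1 Hist1h2bc UMI that met the other criteria had Cdc20 at 48.8 CPM (39.5 to 59.7) and Epcam at 768 CPM (730 to 808), and the 104 selected cells with 2 had 69.2 CPM (50.3 to 92.9) and 812 CPM (743 to 885). The 33 cells with 1 Top2a UMI that met the other criteria had Cdc20 at 79.3 CPM (45.3 to 129) and Cdk1 at 14.9 CPM (3.07 to 43.5), against 63.6 and 6.96 CPM in the selected cells. The intervals overlapped at both thresholds. The 65 cells with at least 2 Hist1h2bc UMIs and neither Top2a, Ccnb2 nor Cenpa had Cdc20 at 5.36 CPM (0.649 to 19.4), against 32.1 CPM (16.0 to 57.4) in the 61 selected cells with 1 UMI of Ccnb2 and Cenpa. Hist1h4i was at 40.2 CPM (22.5 to 66.3) in those 65 cells and 43.8 CPM (24.5 to 72.2) in those 61.

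The selected cells varied with the UMIs that chose them, and since Ccnb2 and Cenpa are mitotic genes themselves the values by their UMIs are a description only. In cells with 1, 2 and at least 3 UMIs of Ccnb2 and Cenpa, Mki67 was at 111 CPM (78.4 to 152), 317 CPM (84 UMIs) and 352 CPM (296 to 415), and Cenpe at 81.7, 158 and 246 CPM. The median of the G2/M list in thinned cells was 13, 17.5 and 27 UMIs, and that of the S phase list 8, 9.5 and 10, while median depth was 5607, 5460.5 and 5884 UMIs. Across 2, 3 and at least 4 Hist1h2bc UMIs, Mki67 was at 267 CPM (229 to 311), 322 CPM (253 to 403) and 124 CPM (72.1 to 198), the last in only 22 cells. A further 43 cells had at least 2 Hist1h2bc UMIs, at least 1 UMI of Ccnb2 and Cenpa together and at least 3 Top2a UMIs. Their median was 11291 UMIs and 17 of them were called doublets (39.5%).

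Markers of the epithelium were present, and Epcam, an adhesion molecule, was higher than in each comparison group. In the selected cells Epcam ranged from 0 to 15 UMIs per cell with a median of 4.5, and all but 2 cells had a UMI. Its level was 779 CPM (726 to 836), against 423 CPM (415 to 430) in the other Top2a-negative cells, 408 CPM (402 to 414) in the Top2a-high cells and 422 CPM in the 11191 remaining kept cells. The log2 fold over the latter was 0.89 (0.78 to 0.99). In thinned cells the median was 3 UMIs against 1 in all 3 comparison groups. Epcam was also high in the 877 cells without Hist1h2bc, at 641 CPM (619 to 663). Krt14, whose promoter drove the Cre, was at 685 CPM against 753 and 620 CPM, and Trp63, the master regulator of stratified epithelia, at 256 CPM against 275 and 238 CPM, so neither passed the size criteria. Krt5, a basal keratin, was lower than in the other Top2a-negative cells (405 against 613 CPM, log2 fold -0.60, -0.74 to -0.46).

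Most markers of other cell types were at or near 0. Of 9 mesenchyme markers 7 had no UMI in the selected cells, and the list summed to 5.96 CPM against 10.0 CPM in all other cells, all from Col1a1 and Col1a2, at 2.98 CPM each. Of 5 endothelial markers 3 were at 0, and Egfl7, the most abundant, was at 10.9 CPM against 8.44 CPM. All 8 blood and immune and all 4 muscle markers had no UMI. Of 4 neural crest and glia markers 2 were at 0, and the sum of 52.7 CPM was mostly Erbb3, at 46.7 CPM against 40.2 CPM in all other cells.

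Some dental markers were over and some anterior markers under their level in the other cells. Of 61 region markers found, 26 were considered against all other cells, of which 5 were higher and 6 lower, beside 5.42 and 14.1% of all genes. The 8 dental markers summed to 564 CPM against 461 CPM (log2 ratio 0.29, 0.17 to 0.41), and 4 of them were higher, Irx1 and Irx2 being considered only through the selected cells. Irx2, a homeobox gene, was at 42.7 CPM (30.9 to 57.6) against 24.9 CPM, Irx1 at 54.7 CPM (41.2 to 71.1) against 36.9 CPM, Fst, the activin antagonist follistatin, at 85.5 CPM (68.4 to 106) against 60.1 CPM, and the desmosomal cadherin Dsc3 at 126 CPM (105 to 150) against 93.9 CPM. The lateral marker Fgf8, likewise considered only through the selected cells, was at 37.8 CPM (26.7 to 51.8) against 24.7 CPM.

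The 11 anterior markers summed to 1941 CPM against 2196 CPM in all other cells (log2 ratio -0.18, -0.24 to -0.11). Of the 10 considered 3 were lower and none higher, beside 14.1 and 5.42% of all genes. Robo2, a receptor for Slit, was at 27.8 CPM (18.5 to 40.2) against 83.2 CPM (log2 fold -1.58, -2.17 to -1.05), Sema3a, a secreted guidance cue, at 113 CPM (93.5 to 136) against 192 CPM, and Wnt9b at 51.7 CPM (38.6 to 67.8) against 72.8 CPM. Cxcl14, the most abundant anterior marker, was at 845 CPM against 863 CPM. Slc4a4 and Rxfp1, of the anterior subdomains, were lower too (log2 folds -0.87, -1.47 to -0.34, and -0.52, -1.05 to -0.03), and Timp3, given as a diastema marker, at 58.6 CPM (44.6 to 75.6) against 105 CPM. The paper gives Rxfp1 as a marker of the posterior epithelium as well. The posterior marker Nkx2-3 did not pass (135 against 106 CPM), nor did the medial markers Isl1 and Tlx1. Against the other Top2a-negative cells 5 markers (Fgf8, Fst, Irx1, Irx2 and Nkx2-3) were higher and 11 lower of 27, beside 5.86 and 10.5% of all genes, with Cxcl14, Tfap2b and Msx2 of the anterior list now among the lower. Fgf8, Irx1 and Irx2 were again considered only through the selected cells. Nkx2-3 was at 89.3 CPM in the other Top2a-negative cells, and Dsc3 did not pass. Against Top2a-high cells 4 were higher and 6 lower of 28, the latter near the 18.8% of all genes that were lower and the former beside 8.37%, among them Irx2, Fst, Dsc3 and the anterior marker Lef1 (180 against 138 CPM) higher and Robo2, Sema3a and Timp3 lower. The anterior sum was slightly higher than in Top2a-high cells (1941 against 1832 CPM, log2 ratio 0.083, 0.018 to 0.15), with Cxcl14 at 845 against 681 CPM.

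**Figure D5:**
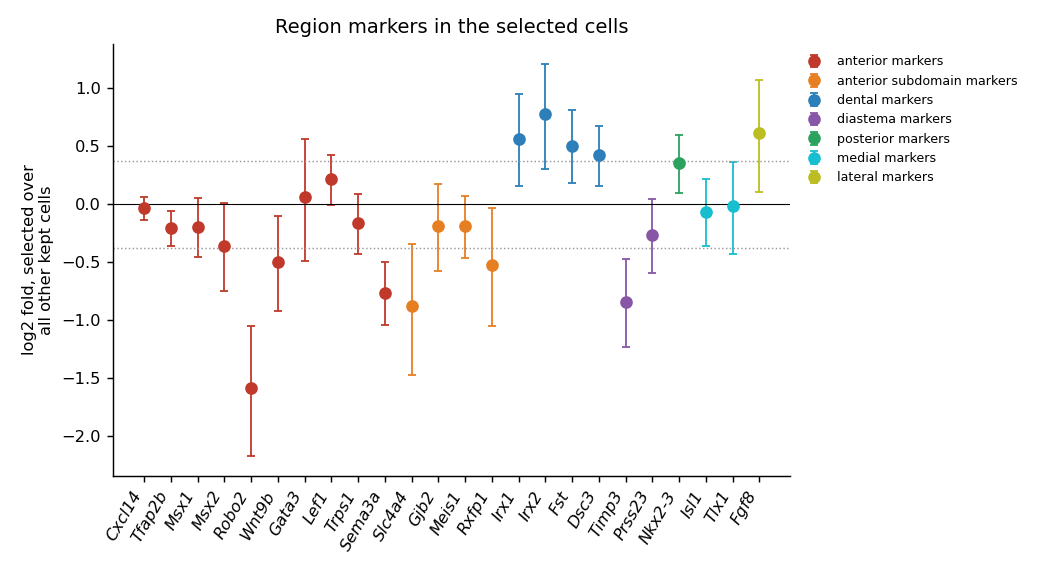
Log2 fold of 24 region markers, selected cells over all other kept cells, with 95% counting intervals and colours for the regions; dotted lines mark 1.3-fold. Irx1, Irx2, Fst, Dsc3 and Fgf8 lie above the upper line and Robo2, Sema3a, Wnt9b, Slc4a4, Rxfp1 and Timp3 below the lower one.

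Counted the other way, as a description of the same UMIs, the selected cells were 2.29% of cells with an Irx2 UMI (31 of 1354, 1.56 to 3.23%) and 1.33% of cells without (1.11 to 1.57%). They were 2.07% of cells with an Fst UMI (1.51 to 2.77%), with an interval of 1.08 to 1.55% in cells without, and 2.13% (1.43 to 3.04%) against 1.35% for Fgf8. They were 0.672% of cells with a Robo2 UMI (20 of 2977, 0.411 to 1.04%) against 1.72% without, and 0.814% (0.564 to 1.14%) against 1.81% for Timp3. With cells thinned to 4000 UMIs, the shares with and without a UMI were 2.93 and 1.33% for Irx2, 0.528 and 1.69% for Robo2 and 0.777 and 1.71% for Timp3. Other dental markers had no higher share, with 0.907% of cells with an Osbpl6 UMI (0.454 to 1.62%) against 1.51% without and an interval of 0.729 to 2.13% against a share of 1.46% for Ntrk2. These shares rest on 11 to 44 selected cells each. Of the lists with few UMIs, 6 initiation knot markers summed to 57.6 CPM against 41.0 CPM in all other cells (log2 ratio 0.49, 0.090 to 0.86) and were within counting error of the other Top2a-negative cells (52.6 CPM). In Top2a-high cells these markers summed to 32.7 CPM (log2 ratio 0.82, 0.41 to 1.20). The 3 salivary gland and posterior-lateral markers summed to 13.9 CPM against 30.4 CPM (log2 ratio -1.13, -2.00 to -0.38). The interval included no difference from the other Top2a-negative cells (-0.73, -1.61 to 0.029) but not from Top2a-high cells (-1.31, -2.18 to -0.55). The 10 periderm and suprabasal markers summed to 178 CPM in the selected cells against 225 CPM in all other cells (log2 ratio -0.34, -0.56 to -0.13). Their ratio was -0.51 (-0.73 to -0.29) to the other Top2a-negative cells. To Top2a-high cells it was -0.18 (-0.40 to 0.037), an interval that includes no difference. Of cells with a UMI of Grhl3, a periderm regulator, 2.82% were selected (1.62 to 4.54%), of those with Ppl, a periplakin, 0.823% (0.395 to 1.51%), and of the 372 with Zfp750 none.

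The other lists were set against the other Top2a-negative cells, where 5.86% of all genes were higher and 10.5% lower. Of 13 genes of the nuclear envelope considered, Lmnb1 was higher and Lmna and Syne2 were lower, Lmna with an interval that includes no difference. Syne2, a giant linker of nucleus and cytoskeleton, was lower in every comparison (174 CPM against 239 and 355 CPM). Of 11 cilium genes 1, Ift27, was higher and none lower. Of 13 immediate-early and heat shock genes none was higher and 6 were lower, among them Egr1, at 40.7 CPM (29.2 to 55.3) against 103 CPM, and Dnajb1, at 44.7 against 66.2 CPM. None of the 4 targets of YAP considered passed.

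Outside the lists, the 20 genes furthest above all other cells were led by Cdkl3, a cyclin-dependent kinase-like kinase, at 41.7 CPM (30.1 to 56.4) against 18.4 CPM (log2 fold 1.18, 0.71 to 1.63). It was considered only through the selected cells, since 21.3% of them and 11.6% of all other cells had a UMI. Snx4, of endosomal sorting, was at 71.6 CPM against 36.6 CPM, and Ypel1, a Yippee family gene, at 74.5 CPM against 40.2 CPM. These 3 were higher than in each comparison group. Mxd4, a MYC antagonist, and Trp53inp1, a p53 target, were 76.5 and 31.8 CPM against 26.0 and 13.9 CPM in Top2a-high cells (log2 1.56 and 1.19), but were not higher than in the other Top2a-negative cells (97.7 and 37.4 CPM). Above the other Top2a-negative cells the 10 leading genes outside the lists included Aspm of the spindle pole (42.7 against 12.8 CPM), the kinesin Kif15 (70.6 against 24.4 CPM) and Cit, a kinase of cytokinesis (28.8 against 13.6 CPM), beside C330027C09Rik, Ttf2, Snrnp25 and Hmgn5. Aspm, Kif15 and Cit had a UMI in 4.76, 10.3 and 6.58% of the other Top2a-negative cells and so were considered only through the selected cells, whose Ccnb2 and Cenpa criterion bears on such genes. Below them were Plxdc2 (13.9 against 61.3 CPM) and Zbtb20 (9.94 against 38.5 CPM).

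At E9.5 the same rule found 4 of 12744 kept cells (0.0314%, 0.00855 to 0.0803%), all with an Epcam UMI, too few to describe. The criterion on Hist1h2bc left few cells there, since 36 cells (0.282%) had at least 2 UMIs against 333 (2.93%) at E12.0, although median depth was 13460.5 UMIs against 6349. Hist1h2bc was at 4.21 CPM (3.91 to 4.54) over all E9.5 cells and 22.3 CPM (21.3 to 23.4) over all E12.0 cells. The criterion on Top2a also differed, with no Top2a UMI in 12.5% of E9.5 and 47.9% of E12.0 cells, while 89.2% of E9.5 and 39.8% of E12.0 cells had a Ccnb2 or Cenpa UMI. Thinned to 4000 UMIs, 1 of 11029 cells met the rule at E9.5 and 85 of 10439 at E12.0. Stage, sorting and the version of the counting software differ between the libraries and cannot be told apart. The libraries shared 51 cell barcodes, none of them of a selected cell.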

How the data were processed

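The authors deposited UMI counts per gene and cell barcode, raw and not normalized, for 2 libraries. Per the labels they come from Cell Ranger 2.0.0 with builds mm10 and GRCm38, whereas the file headers give 3.1.0 (E12.0) and 6.1.2 (E9.5). The E12.0 file holds 11663 barcodes and 78911671 UMIs, of which 294 barcodes exceeded the mitochondrial and 14 the gene limit. Kept E12.0 cells had 503 to 21712 UMIs. Counts were summed per cell group in Python 3.11.15 with scanpy 1.11.5, pandas 2.3.3, numpy 2.4.6, matplotlib 3.10.9 and scipy 1.17.1, with exact Poisson, binomial and conditional binomial intervals. A group without a UMI of a gene was given 3 counts for a fold. Cells were thinned, and Scrublet run, with a seed of 1. It called 661 of 11355 cells doublets (5.82%), and these were kept. The steps were tested on simulated data.

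The cells, lists and comparisons were chosen with earlier results of these data known. The cells without Hist1h2bc were added as a comparison, and the promoters were chosen, after values were seen. Named genes are those of the lists, the cluster histones and, outside both, the 20 largest and 10 smallest folds against all other cells and 10 of each against the other groups. Positions are from GENCODE on GRCm38. 13 alternatives were run. Some genes of the lists entered the counts but are not reported here by name.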

Additional observations from a re-analysis of the deposited data

How the results depend on the processing

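No paired analysis was possible because each stage has 1 library, and no replicate could be left out. The share of selected cells moved with the rule and the depth. It was 4.31% with at least 1 Hist1h2bc UMI, 0.528% with at least 3, 0.907% with at least 2 UMIs of Ccnb2 and Cenpa, 0.634% with Ccnb2 alone, 1.72% at a limit of 5% mitochondrial UMIs, 1.74% among cells with 4000 to 8000 UMIs and 0.814% (85 cells) with counts thinned to 4000 UMIs. It stayed within its counting interval without called doublets, without the upper gene limit and with Cenpa alone.

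Counts of genes past the size criteria moved as follows. Against all other cells they were 877 (5% mitochondrial limit), 614 (thinned), 842 (at least 3 Hist1h2bc UMIs), 128 (at least 1), 719 (Ccnb2 alone), 6 (2-fold) and 172 (a UMI in 25% of cells). Counts of lower genes were 1512 at the mitochondrial limit, 171 at 2-fold and 455 at 25%. Against Top2a-high cells, higher genes were 1049 at the mitochondrial limit, 1047 with at least 3 and 347 with at least 1 Hist1h2bc UMI, 928 with Ccnb2 alone, 16 at 2-fold and 322 at 25%, and lower genes 355 at 2-fold. Against other Top2a-negative cells, higher genes were 831 at the mitochondrial limit, 620 thinned, 822 with at least 3 and 193 with at least 1 Hist1h2bc UMI, 561 with at least 2 UMIs of Ccnb2 and Cenpa, 727 with Ccnb2 alone, 34 at 2-fold and 180 at 25%. Lower genes were 1099 at the mitochondrial limit, 960 with at least 3 and 398 with at least 1 Hist1h2bc UMI, 930 with Ccnb2 alone, 42 at 2-fold and 261 at 25%. G2/M genes higher than in all other cells were 1 in the main setting, 2 with cells weighted equally, at the mitochondrial limit or thinned, 6 among cells with 4000 to 8000 UMIs, 4 with at least 2 UMIs of Ccnb2 and Cenpa or with Ccnb2 alone, and 0 with at least 1 Hist1h2bc UMI, at 2-fold or at 25%. Lower S phase genes were 34 and moved to 17 at 2-fold. Region markers past the criteria were 20 at the mitochondrial limit, 7 with at least 1 Hist1h2bc UMI, 1 at 2-fold and 6 at 25%. At E9.5, 1 cell was left after thinning. The cause of these moves was not tested.

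Of 620 folds of 16 genes recomputed in 3 comparisons, 540 stayed within their counting interval, 80 moved beyond it and none past the criteria changed direction. With 1006227 UMIs in the selected cells, genes under about 15 CPM have wide intervals, and many genes counted as higher rest on few UMIs.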
